A study of Rattus norvegicus with 12 samples.

Results

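The right ventricle (RV) of the neonatal rat was compared between volume overload (VO) and a sham operation over all genes, using 6 of the 12 libraries of the series. The members were all 3 VO RV and all 3 sham RV libraries by their labels, and 13910 of the 32545 genes in the deposited table were expressed highly enough to be tested. Sprague–Dawley (SD) rats underwent surgery at postnatal day 1, and the RV free wall was taken at postnatal day 7. In the VO group the surgery joined the abdominal aorta to the inferior vena cava (AVF), which returns arterial blood to the right heart and loads both ventricles, and in the sham group it did not. The other 6 libraries came from the left ventricle (LV) free wall of the same 2 treatments and entered the model to estimate the spread. Whether a library held 1 heart or a pool, and whether an RV and an LV library shared a rat, is not given in the labels, so the p values measure the spread between libraries, which may be partly technical. The free wall is a mixed tissue, in which fewer cells of a type and less RNA per cell cannot be told apart.

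As background, the RV and LV pump in parallel before birth, and the RV becomes the thinner, low-pressure chamber during the days after it. A shunt that raises venous return stretches the wall. Stretched cardiomyocytes are known to release natriuretic peptides, to switch on immediate early genes and the YAP and TEAD targets Ctgf and Cyr61, and to change their myosin isoforms. In the same days cardiomyocytes leave the cell cycle, turn from glucose to fatty acids as fuel under PPARα and PGC-1, and build up the channels, calcium release units and desmosomes of the mature cell.

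The libraries held between 14121713 and 16438318 reads on genes. Pearson's r of the log2 values across genes was 0.969 to 0.974 among sham RV, 0.961 to 0.971 among VO RV and 0.959 to 0.978 between the groups, so libraries of 1 group were no closer to each other than to those of the other. VO RV 3 correlated most with sham LV 1 (0.979), above its 0.959 to 0.971 with the RV libraries. VO RV 1 and sham RV 1 were also closest to an LV library (VO LV 1 at 0.979 and VO LV 3 at 0.975). What sets VO RV 3 apart was not tested, and values without it are given for some of the results that it moved by over 1.5 times. Values are given as FPKM (fragments per kilobase of transcript, scaled to the fragments mapped in the library), in the order of replicates 1, 2 and 3. The ventricular transcripts Irx4 and Myl2 were read in every library, at 32.9 to 58.8 and 533 to 1130 FPKM, both lowest in VO RV 2. Markers of thymus and lung epithelium were at 0.213 to 0.496 and 1.90 to 5.41 FPKM summed over their lists, and the 1 lung marker tested, Ager, was higher in VO RV at the unadjusted limits. Y-linked Eif2s3y was above 1 FPKM in 2 of 3 sham RV and 1 of 3 VO RV libraries and under 1 FPKM in the others, so the sexes were not balanced between the groups. The part of sex in the results below was not tested beyond a covariate for the Y-linked genes, whose effect is given with the other settings.

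Atrial transcripts set 2 of the 6 libraries apart. Sln, which encodes the atrial calcium pump inhibitor sarcolipin, measured 97.7, 0.236 and 0.677 FPKM in the sham RV libraries and 0.451, 388 and 0 FPKM in the VO RV libraries. Bmp10, an atrial growth factor of the developing heart, measured 12.6, 0.0531 and 0.152 FPKM in the sham RV libraries and 0.0506, 72.5 and 0.0459 FPKM in the VO RV libraries. Both were thus high in sham RV 1 and higher again in VO RV 2, and at or near 0 in the other 4 libraries, so that the groups overlapped (log2 fold changes 0.38 and 0.74, adjusted p = 0.974 and 0.917).

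**Figure D1:**
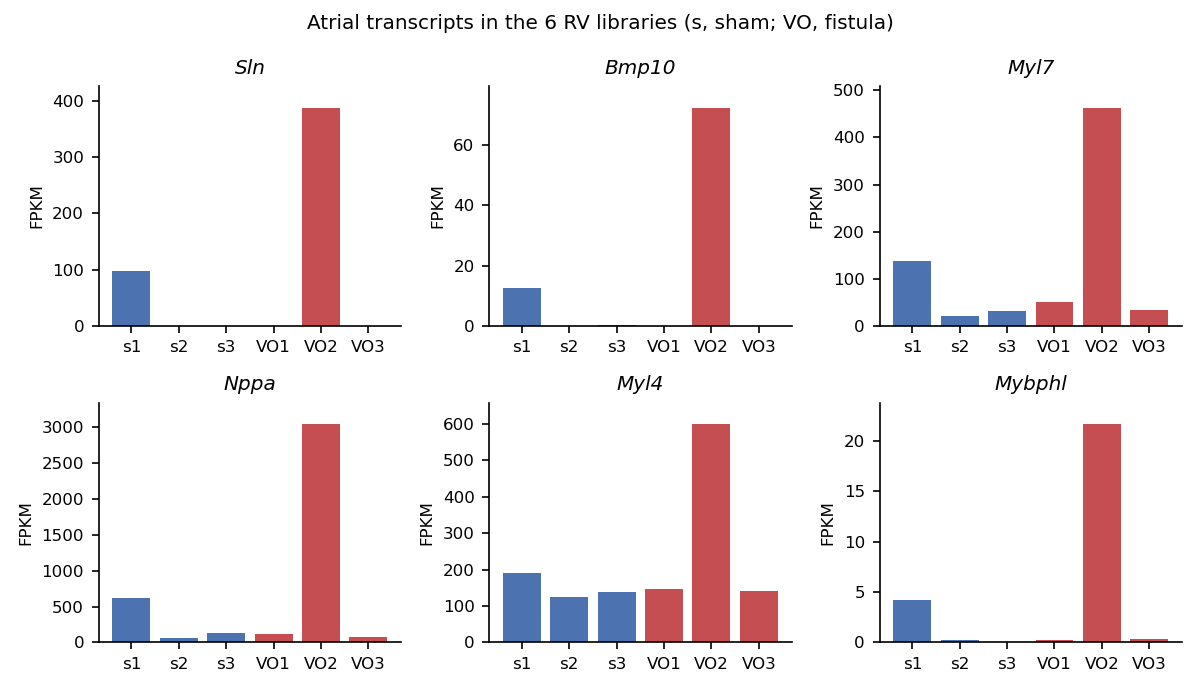
FPKM of 6 atrial transcripts (vertical axes, linear from 0) in each sham RV (blue) and VO RV (red) library; bars are single libraries with no error. Sln stands at 97.7 FPKM in sham RV 1 and 388 FPKM in VO RV 2 and under 1 FPKM in the other 4.

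Over the 18 markers of atrial cardiomyocytes, 16 were higher in VO RV 2, and 11 higher in sham RV 1, than in all 4 other libraries. Their summed level was 1540 FPKM in sham RV 1, 5271 FPKM in VO RV 2 and 639 to 769 FPKM in the rest. Myl7, the atrial regulatory light chain, was 138 FPKM in sham RV 1, 463 FPKM in VO RV 2 and 21.4 to 51.4 FPKM elsewhere. The natriuretic peptide gene Nppa, which the atria express most, followed the same order at 625, 3037 and 64.2 to 133 FPKM. Among the 16 tested markers, 0 combined an unadjusted p below 0.05 with a change of more than 1.3-fold. Of all tested genes 1.88% were higher and 3% lower by these limits, beside which 0 of 16 is no result about the markers. The median log2 fold change of these 16 was 0.44, and −0.20 without VO RV 2. One library with high atrial transcripts lies in each group.

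The thresholds of the study for a differentially expressed gene (DEG) were an adjusted p below 0.05 together with a change of more than 1.3-fold, and by limma the RV held no DEG. The study did report RV DEGs at these thresholds, with DESeq2. That test was not run here, so the counts come from unlike tests. In limma, 0 of 13910 tested genes passed (0%), the smallest adjusted p was 0.262, and 1170 genes had an unadjusted p under 0.05. Voom, run on the reads recovered from the FPKM, also called 0. The genes below are therefore ordered by a test that none of them passed after adjustment, and "higher" and "lower" refer to the 6 values measured. Taken at an unadjusted p below 0.05 with a change of more than 1.3-fold, 261 genes (1.88%) were higher and 417 (3%) lower in VO RV. All 3 VO RV values lay above all 3 sham RV values in 784 genes (5.64%) and below them in 956 (6.87%). For each such gene the exact two-sided permutation test gives p = 0.10, the smallest that 3 libraries against 3 allow.

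**Figure D2:**
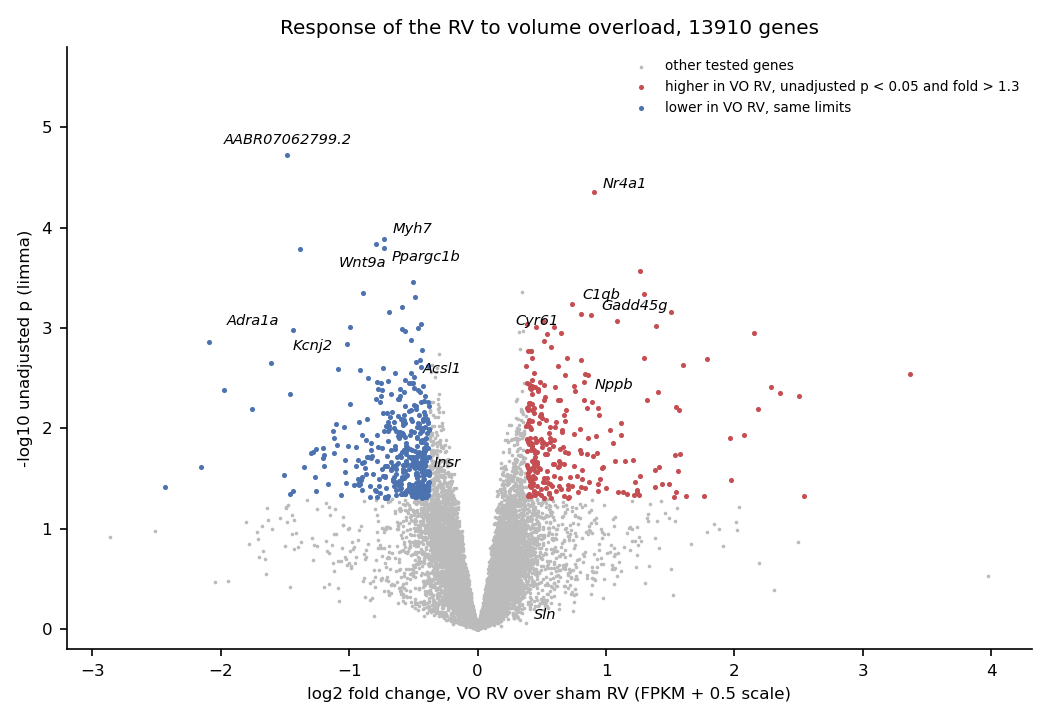
Log2 fold change of VO RV over sham RV (horizontal axis) against −log10 of the unadjusted p from limma (vertical axis) for 13910 genes, 1 point each. The 261 coloured genes on the right and 417 on the left pass the unadjusted p and the fold change, and Sln lies near the bottom with its 2 high libraries in different groups.

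Of the 678 genes at the unadjusted p and fold change, 153 kept both in each of the 6 fits that left out 1 RV library, 67 of them higher and 86 lower in VO RV, and the groups did not overlap in 62 and 84 of these. The lower genes were lowest in VO RV 3: over the 417, the median log2 difference from the sham RV mean was −0.41, −0.44 and −0.79 in VO RV 1, 2 and 3. Over the 261 higher genes it was 0.50, 0.59 and 0.65. The lower genes numbered 179 without VO RV 3, 223 without sham RV 1, 652 without VO RV 1 and 677 without VO RV 2, and the higher genes 514 without VO RV 1. Without both libraries with atrial transcripts 301 were higher and 346 lower, and 45 of the 71 genes named in the text that met the unadjusted p and fold change still met them. Shares of all tested genes set beside list counts below are those of the main fit. Where fewer of all genes pass without a library, a smaller count in a list is not by itself a result about that list.

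Among natriuretic peptides and secreted factors that respond to load, Nppb, Ctgf and Cyr61 were higher in VO RV with no overlap between the groups. Nppb, which encodes brain natriuretic peptide, measured 129.6, 67.1 and 109.5 FPKM in the sham RV libraries and 160.1, 226 and 148 FPKM in the VO RV libraries. The groups did not overlap, with VO RV 2 highest and sham RV 2 lowest (log2 fold change 0.83, standard error 0.23, adjusted p = 0.536, limma). Left out one at a time, the libraries gave log2 fold changes of 0.56 to 1.03, and with sham RV 1 and VO RV 2 both left out the value was 0.84, as large as with them. Nppa did not separate the groups, and its log2 fold change ranged from −0.94 to 1.75 with the library left out.

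Ctgf and Cyr61, secreted matricellular proteins and known targets of YAP and TEAD, were the members of the secreted list whose groups did not overlap. Ctgf measured 52.7, 30.7 and 33.5 FPKM in the sham RV libraries and 87.9, 58.1 and 72.6 FPKM in the VO RV libraries (log2 fold change 0.92, standard error 0.31, adjusted p = 0.536). Cyr61 measured 17.0, 13.1 and 17.0 FPKM in the sham RV libraries and 20.9, 28.3 and 25.3 FPKM in the VO RV libraries (log2 fold change 0.65, standard error 0.15, adjusted p = 0.459). Thbs4 (log2 fold change 1.19) and Timp1 (0.49), a thrombospondin and a protease inhibitor, were also higher on average with overlapping groups, and Timp1 was at 0.33 without VO RV 2. All 12 tested members of that list had a log2 fold change above 0, with a median of 0.37 beside 0.006 over all tested genes, and 3 passed the unadjusted p and fold change, against 1.88% of all tested genes. Without VO RV 2, 5 of the 12 were above 0 and the median was −0.02, so the shift of the list, unlike Ctgf and Cyr61, rested on that library. Without both libraries with atrial transcripts 9 were above 0, the median was 0.14 and 2 passed. Yap1, the coactivator itself, was not higher and measured 46.6, 32.7 and 31.8 FPKM in the sham RV libraries and 25.2, 31.4 and 17.9 FPKM in the VO RV libraries (log2 fold change −0.58, adjusted p = 0.551, and −0.36 without VO RV 3).

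The immediate early genes, transcription factors induced within minutes of a stimulus, were higher as a list with little dependence of the median on single libraries. Nr4a1, an orphan nuclear receptor, measured 8.17, 9.96 and 7.95 FPKM in the sham RV libraries and 17.0, 18.9 and 14.2 FPKM in the VO RV libraries. Each VO RV library stood above each sham RV library, and its p was the smallest of any gene higher in the VO libraries (log2 fold change 0.91, standard error 0.14, adjusted p = 0.31). Leaving out single libraries gave 0.81 to 1.02.

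Atf3, a stress-induced repressor, measured 2.69, 2.76 and 1.46 FPKM in the sham RV libraries and 5.70, 3.24 and 4.35 FPKM in the VO RV libraries (log2 fold change 0.83, adjusted p = 0.536). Egr1, a zinc finger factor induced by stretch and growth factors, measured 7.25, 5.36 and 6.39 FPKM in the sham RV libraries and 7.62, 14.1 and 10.8 FPKM in the VO RV libraries (log2 fold change 0.70, adjusted p = 0.554). Egr1 met the unadjusted p and fold change in 4 of the 6 fits without 1 library. Of the 22 tested members 21 had a log2 fold change above 0, 3 (Nr4a1, Atf3 and Egr1) passed the unadjusted p and fold change (1.88% of all tested genes were higher by these limits), and the groups did not overlap in 8 (5.64% of all tested genes lay above in the same way). The median was 0.29, and it ran from 0.25 to 0.34 over the settings tried.

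Sik1 and Gadd45g, which lie outside that list, had the same pattern. Sik1, a kinase induced by cyclic AMP that restrains CREB coactivators, measured 7.81, 6.90 and 5.33 FPKM in the sham RV libraries and 13.1, 14.4 and 8.83 FPKM in the VO RV libraries (log2 fold change 0.81, standard error 0.18, adjusted p = 0.459). Gadd45g, a growth arrest and stress gene, measured 34.3, 26.0 and 36.7 FPKM in the sham RV libraries and 66.0, 46.1 and 68.7 FPKM in the VO RV libraries (log2 fold change 0.89, standard error 0.19, adjusted p = 0.459). Neither gene overlapped between the groups.

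The promoters of 5 of these genes are shown because CREB is known to bind the motif TGACG and TEAD the motif CATTCC. The sequences are the 250 bases before the start of transcription in RefSeq, build GRCr8, 5′ to 3′ on the strand of the gene, and capitals mark these motifs on either strand (read on the other strand, the CREB motif is CGTCA and the TEAD motif is GGAATG). No motif overlaps another in these windows. The motifs were chosen with the values of the genes known. RefSeq names Ctgf and Cyr61 as Ccn2 and Ccn1, and the windows lie at chr7:134259888-134260137, plus strand (Nr4a1), chr20:9958647-9958896, minus strand (Sik1), chr1:22624615-22624864, minus strand (Ctgf), chr2:237225690-237225939, minus strand (Cyr61) and chr5:163699758-163700007, plus strand (Nppb).
Nr4a1: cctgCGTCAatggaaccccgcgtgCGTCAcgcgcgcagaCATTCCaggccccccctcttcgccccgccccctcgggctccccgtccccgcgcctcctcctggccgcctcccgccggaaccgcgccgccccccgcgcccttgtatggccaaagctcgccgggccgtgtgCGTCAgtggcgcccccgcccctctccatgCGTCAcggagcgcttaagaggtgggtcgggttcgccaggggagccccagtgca
Sik1: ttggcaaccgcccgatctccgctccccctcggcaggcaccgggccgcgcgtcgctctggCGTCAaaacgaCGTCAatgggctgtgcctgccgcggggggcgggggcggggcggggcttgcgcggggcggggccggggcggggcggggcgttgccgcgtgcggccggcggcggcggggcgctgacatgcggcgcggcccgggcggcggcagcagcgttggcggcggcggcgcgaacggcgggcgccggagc
Ctgf: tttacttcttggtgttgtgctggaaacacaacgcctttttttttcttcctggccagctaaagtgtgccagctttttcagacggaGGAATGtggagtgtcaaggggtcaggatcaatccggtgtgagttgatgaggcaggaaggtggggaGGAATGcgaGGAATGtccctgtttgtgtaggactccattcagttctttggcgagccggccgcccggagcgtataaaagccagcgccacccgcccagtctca
Cyr61: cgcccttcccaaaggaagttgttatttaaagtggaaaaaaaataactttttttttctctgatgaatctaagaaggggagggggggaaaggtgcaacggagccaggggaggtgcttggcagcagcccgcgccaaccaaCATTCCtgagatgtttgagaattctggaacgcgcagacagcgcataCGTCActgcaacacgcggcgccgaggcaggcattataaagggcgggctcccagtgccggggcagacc
Nppb: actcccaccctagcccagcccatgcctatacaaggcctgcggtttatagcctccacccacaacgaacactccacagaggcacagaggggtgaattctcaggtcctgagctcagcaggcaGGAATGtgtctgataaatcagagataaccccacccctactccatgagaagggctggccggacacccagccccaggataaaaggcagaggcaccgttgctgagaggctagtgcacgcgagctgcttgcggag

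The Nr4a1 window held 4 copies of TGACG on either strand, the Sik1 window 2 and the Cyr61 window 1. Among the 33469 promoters of the table, 18.2% held at least 1 copy in their 250 bases, 3.98% at least 2 and 0.173% at least 4. For CATTCC, the Ctgf window held 3 copies and the Nr4a1, Cyr61 and Nppb windows 1 each, where 12.1% of all promoters held at least 1 and 0.0807% at least 3. A match is a description of the letters and was not tested as a site.

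Genes of G2 and mitosis were slightly higher in VO RV. Cdk1, the kinase that drives entry into mitosis, measured 25.4, 27.5 and 27.0 FPKM in the sham RV libraries and 33.6, 38.5 and 36.6 FPKM in the VO RV libraries. The groups were separate, with a small spread within each (log2 fold change 0.44, standard error 0.12, adjusted p = 0.536). Ube2c, a ubiquitin-conjugating enzyme of mitotic exit, measured 6.02, 7.49 and 8.25 FPKM in the sham RV libraries and 9.48, 10.3 and 9.98 FPKM in the VO RV libraries (log2 fold change 0.44, adjusted p = 0.536).

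Of 23 tested genes of this role 22 were above 0 on the log2 scale, with a median of 0.27, and the groups did not overlap in 11, against 5.64% of all tested genes. Cdk1 and Ube2c passed the unadjusted p and fold change, against 1.88% of all tested genes, and 6 genes did without VO RV 3. Without both libraries with atrial transcripts 0 passed, 20 were above 0, the median was 0.19 and Ube2c was at 0.29. The S phase genes had a median of 0.09, with 3 of 16 not overlapping.

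Macrophage transcripts were higher in VO RV, most of all in 2 of its libraries. C1qb, a subunit of complement C1q made by tissue macrophages, measured 7.55, 7.94 and 11.4 FPKM in the sham RV libraries and 12.4, 16.2 and 16.6 FPKM in the VO RV libraries. It was separate between the groups (log2 fold change 0.74, standard error 0.16, adjusted p = 0.459). Cd68, a lysosomal protein of phagocytes, measured 3.37, 2.21 and 3.85 FPKM in the sham RV libraries and 4.06, 6.25 and 6.67 FPKM in the VO RV libraries (log2 fold change 0.76, standard error 0.21, adjusted p = 0.536).

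Of 13 tested macrophage genes 12 were above 0, the median log2 fold change was 0.37, and 5 passed the unadjusted p and fold change, against 1.88% of all tested genes, among them Tyrobp (0.57) and C1qa (0.54, and 0.30 without sham RV 2). Summed over the list, sham RV libraries held 117.5 to 127 FPKM, VO RV 1 held 126 FPKM and VO RV 2 and 3 held 183 and 185 FPKM. The number passing was 2 without VO RV 2 or without VO RV 3, 3 without both sham RV 1 and VO RV 2, and 2 with the gene length trend removed. Without VO RV 2 the median was 0.19 and 10 of the 13 were above 0. Among mast cell proteases, Cpa3 had a log2 fold change of 1.05 (adjusted p = 0.541), and 0.65 without VO RV 2. Mcpt1 measured 3.70, 0.478 and 0.717 FPKM in the sham RV libraries and 3.90, 8.16 and 2.89 FPKM in the VO RV libraries (log2 fold change 1.57, adjusted p = 0.536) and was called, at an adjusted p of 0.0333, when sham RV 1 and VO RV 2 were both left out. Over the other settings its adjusted p ran up to 0.993.

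Contractile genes differed by isoform. Myh7, which encodes the slow β-myosin heavy chain of the fetal and failing heart, measured 1132, 1251 and 1018 FPKM in the sham RV libraries and 725, 598 and 720.4 FPKM in the VO RV libraries. The mean was 1133 ± 116 FPKM (SD, n = 3) in sham RV and 681 ± 71.7 FPKM in VO RV, without overlap (log2 fold change −0.73, standard error 0.13, adjusted p = 0.377). Its log2 fold change was −0.80 to −0.64 when single libraries were left out.

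Myh6, the fast α-myosin heavy chain, was lower by less and measured 2323, 2355 and 2165 FPKM in the sham RV libraries and 1916, 1762 and 1718 FPKM in the VO RV libraries (log2 fold change −0.34, adjusted p = 0.558). Tpm2, β-tropomyosin, was higher and measured 72.1, 70.7 and 81.9 FPKM in the sham RV libraries and 89.8, 115 and 109 FPKM in the VO RV libraries (log2 fold change 0.48, standard error 0.15, adjusted p = 0.536). Acta2, smooth muscle actin, was also higher at 123, 196 and 152 FPKM in VO RV against 115, 86.8 and 109 FPKM in sham RV (with a log2 fold change of 0.59, adjusted p = 0.558). It is a marker of mural cells too, whose list had a median of 0.17 (−0.008 without VO RV 3) with 1 of 9 passing (1.88% of all tested genes were higher by these limits). Neither Tpm2 nor Acta2 met the unadjusted limit without both libraries with atrial transcripts. Cardiac and skeletal α-actin (Actc1 −0.08 and Acta1 −0.05), Tnnt2 (0.03) and the stretch protein Ankrd1 (0.07) had log2 fold changes near 0 with standard errors of 0.13 to 0.20.

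Transcripts of the Z-disc and the assembly of the sarcomere leaned lower. Smyd1, a muscle methyltransferase and myosin chaperone, measured 95.8, 69.4 and 52.2 FPKM in the sham RV libraries and 48.9, 37.3 and 23.3 FPKM in the VO RV libraries (log2 fold change −0.99, standard error 0.29, adjusted p = 0.536). Pdlim5, a Z-disc scaffold, measured 134, 156 and 142 FPKM in the sham RV libraries and 112, 87.8 and 87.0 FPKM in the VO RV libraries (log2 fold change −0.59, adjusted p = 0.536). Neither overlapped between the groups, though sham RV 3 and VO RV 1 lay close in Smyd1. Of 17 tested genes of this role 16 had a log2 fold change below 0, the median was −0.31, 5 passed the unadjusted p and fold change and 9 did not overlap between the groups, against 3% and 6.87% of all tested genes. Without VO RV 3, 2 passed and 15 were below 0, and without both libraries with atrial transcripts 3 passed and 16 were below 0. Of all tested genes 179 and 346 passed lower in these fits. Synpo2l, an actin-binding Z-disc protein, was 52.5, 43.8 and 27.5 FPKM in VO RV and 89.2, 73.4 and 61.0 FPKM in sham RV (with a log2 fold change of −0.87, adjusted p = 0.538).

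Calcium release genes were lower with VO RV 3 lowest. Jph2, which ties the sarcoplasmic reticulum to the T-tubule, measured 155, 131 and 135 FPKM in the sham RV libraries and 106, 87.9 and 48.3 FPKM in the VO RV libraries (log2 fold change −0.86, standard error 0.27, adjusted p = 0.536). Ryr2, the calcium release channel, measured 55.8, 43.4 and 34.6 FPKM in the sham RV libraries and 29.9, 29.2 and 21.7 FPKM in the VO RV libraries (log2 fold change −0.70, standard error 0.19, adjusted p = 0.536). Neither overlapped, and both kept the unadjusted p and fold change with any library left out, Jph2 at −0.52 without VO RV 3.

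Atp2a2, the calcium pump SERCA2a, measured 1002, 969 and 906 FPKM in the sham RV libraries and 839, 722 and 522 FPKM in the VO RV libraries (log2 fold change −0.49, adjusted p = 0.558) and passed in 3 of the 6 fits without 1 library. Cacnb2, a calcium channel subunit, had a log2 fold change of −0.58 (adjusted p = 0.536) and Slc8a1, the sodium-calcium exchanger, of −0.83 (adjusted p = 0.588), the latter with overlap. Without VO RV 3 the log2 fold change was −0.29 for Atp2a2 and −0.40 for Slc8a1. Phospholamban (Pln) did not separate the groups (−0.19). Of 30 tested calcium cycling genes 22 were below 0, the median was −0.14, 6 passed lower and 0 higher (3% and 1.88% of all tested genes). The number passing was 3 without sham RV 1, without VO RV 3, or without both sham RV 1 and VO RV 2. In these fits 223, 179 and 346 of all tested genes passed lower.

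Kcnj2 and Kcnj12, potassium channels of the inward rectifier family, were lower. Kcnj2, the main inward rectifier of ventricular cardiomyocytes, measured 9.16, 8.06 and 6.61 FPKM in the sham RV libraries and 5.32, 3.52 and 2.50 FPKM in the VO RV libraries (log2 fold change −1.02, standard error 0.24, adjusted p = 0.515). Kcnj12, its close relative, measured 12, 9.39 and 8.24 FPKM in the sham RV libraries and 6.94, 5.81 and 3.38 FPKM in the VO RV libraries (log2 fold change −0.85, standard error 0.23, adjusted p = 0.536). The 3 VO RV values of each lay below the 3 sham RV values.

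Kcnj11, a subunit of the ATP-sensitive channel, had a smaller log2 fold change in the same direction (−0.45). Of 26 tested channel genes 21 were below 0, the median was −0.28, 8 passed lower, 0 passed higher and 8 did not overlap, against 3% of all tested genes passing lower and 6.87% below without overlap. With both libraries with atrial transcripts left out 6 passed lower, and without VO RV 3 2 did (346 and 179 of all tested genes).

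Arrhythmogenic right ventricular cardiomyopathy (ARVC) is caused by mutations in desmosome genes, and the levels of these genes were lower in VO RV on average. Dsp, desmoplakin, measured 97.3, 91.1 and 76.9 FPKM in the sham RV libraries and 75.0, 58.3 and 46.4 FPKM in the VO RV libraries (log2 fold change −0.57, standard error 0.18, adjusted p = 0.536). The groups did not overlap, with sham RV 3 just above VO RV 1. Dsg2 (−0.37, adjusted p = 0.558) and Dsc2 (−0.33, adjusted p = 0.576), the desmosomal cadherins, did not overlap either. With all libraries both were under the fold change limit (−0.23 and −0.21 without VO RV 3). They met the unadjusted p and fold change in 3 and 2 of the 6 fits without 1 library. Pkp2 (−0.20) and Jup (−0.20) overlapped between the groups. All 6 desmosome genes were below 0, with a median of −0.27, and 1 (Dsp) passed the unadjusted p and fold change, where 3% of all tested genes passed lower. Without VO RV 2, 3 of the 6 passed lower, beside 677 of all tested genes. In the wider list of 45 tested genes of desmosomes, junctions, integrins and the dystrophin complex, 34 were below 0 and the median was −0.19. Of these 45, 8 passed lower, against 3% of all tested genes. The number was 2 without sham RV 1 or without VO RV 3, 3 without both libraries with atrial transcripts, and 10 without VO RV 2. Of all tested genes 223, 179, 346 and 677 passed lower in these fits.

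**Figure D3:**
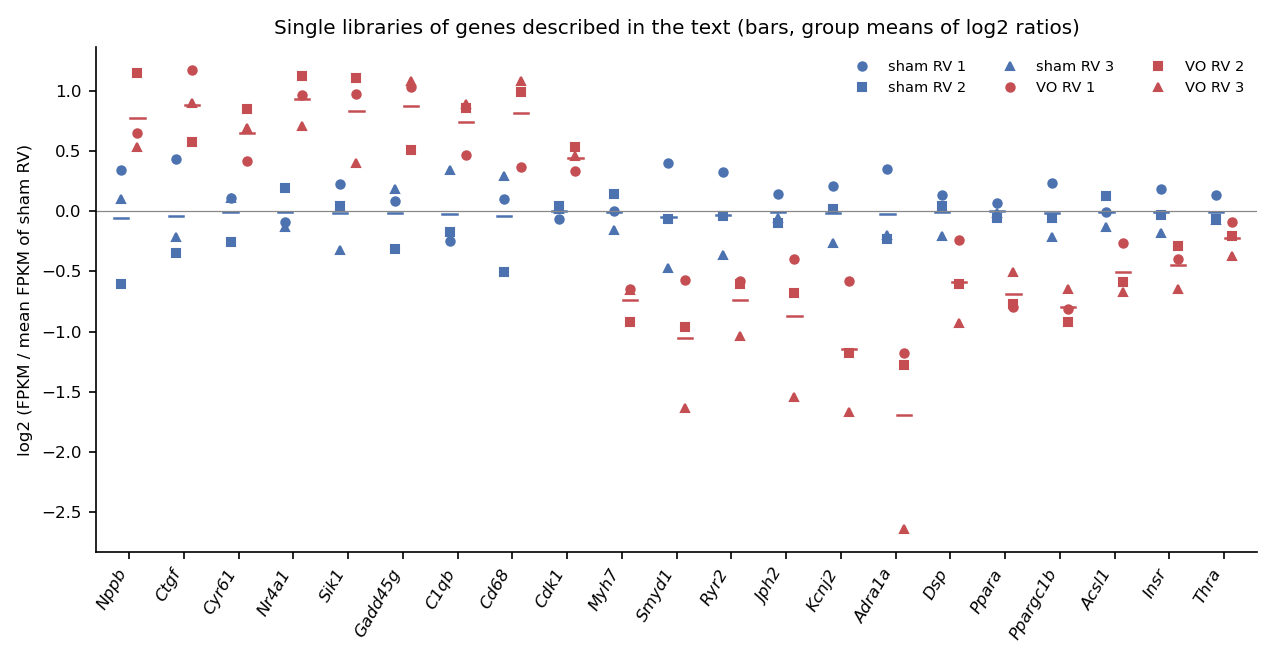
Log2 ratio of each library's FPKM to the mean of the 3 sham RV libraries (vertical axis) for 21 genes of the text; blue marks are sham RV and red marks VO RV libraries, marker shapes are replicates 1 to 3, and bars are group means. For Nr4a1 and Myh7 the groups stand clear of each other, whereas Smyd1, Jph2 and Adra1a reach their lowest values in VO RV 3.

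The regulators of fatty acid oxidation Ppargc1b and Ppara were lower in all VO RV libraries. Ppargc1b, the coactivator PGC-1β, measured 13.3, 10.8 and 9.72 FPKM in the sham RV libraries and 6.43, 5.95 and 7.23 FPKM in the VO RV libraries (log2 fold change −0.73, standard error 0.13, adjusted p = 0.377). Ppara, the nuclear receptor PPARα that drives oxidation genes, measured 6.48, 5.92 and 6.10 FPKM in the sham RV libraries and 3.56, 3.61 and 4.34 FPKM in the VO RV libraries (log2 fold change −0.62, standard error 0.18, adjusted p = 0.536). In both genes VO RV 3 was the highest of its group, unlike in the genes of calcium release.

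Acsl1, the main long-chain acyl-CoA synthetase of the heart, measured 160.2, 175 and 147 FPKM in the sham RV libraries and 134, 107 and 101 FPKM in the VO RV libraries (log2 fold change −0.50, standard error 0.13, adjusted p = 0.536). Its groups did not overlap, and the log2 fold change was −0.62 to −0.41 without single libraries. These are RNA values, and the study reported ACSL1 protein as increased in the RV under VO by Western blot. Rxra, the partner receptor of PPARα, had a log2 fold change of −0.46 (adjusted p = 0.558, and −0.30 without VO RV 3) and Ppargc1a, PGC-1α, of −0.39 (adjusted p = 0.611). Of 11 receptors and coactivators 10 were below 0 with a median of −0.25, and Pparg, the receptor of fat cells, was the exception at 0.04. Of the 11, 4 passed lower and 5 did not overlap, against 3% and 6.87% of all tested genes. The number passing was 2 without sham RV 1, without VO RV 3, or without both libraries with atrial transcripts (223, 179 and 346 of all tested genes). Among 23 enzymes of mitochondrial and peroxisomal oxidation 18 were below 0 (median −0.20), 1 passed lower, a share near the 3% of all tested genes, and 6 did not overlap, against 6.87%. Markers of adipocytes gave 2 tested genes of 8, with 0 at the unadjusted p and fold change.

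Lists of other fuel genes had medians below 0, apart from the respiratory chain. The median was −0.03 in the 24 tested genes of glucose transport and glycolysis, with 1 passing lower, and 0.005 without VO RV 3, with 13 of the 24 above 0. Of all tested genes 3% passed lower, beside which 1 gene each of glycolysis, the citrate cycle and the respiratory chain is no result about these lists. In the citrate cycle 18 of 19 genes were below 0 with a median of −0.14, and 1, Ogdh, passed, at 24.5, 27.9 and 10.9 FPKM in VO RV against 53.0, 37.4 and 29.2 FPKM in sham RV (with a log2 fold change of −0.96, adjusted p = 0.584, and −0.55 without VO RV 3). Without VO RV 2, 11 of the 19 were below 0 and the median was −0.06, and without VO RV 3 the median was −0.08. All 12 genes of pyruvate dehydrogenase and glycogen handling were below 0 (median −0.27), with 2, the glycogen phosphorylases Pygb (−0.60, and −0.34 without VO RV 3) and Pygm (−0.39), passing, and 0 when sham RV 1, VO RV 3, or both libraries with atrial transcripts were left out. Without VO RV 3 the median of the 12 was −0.09 and 10 were below 0. Slc16a1, the monocarboxylate transporter of lactate and pyruvate, measured 106, 105 and 96.3 FPKM in the sham RV libraries and 81.8, 58.3 and 57.0 FPKM in the VO RV libraries (log2 fold change −0.65, adjusted p = 0.536). The nuclear genes of the respiratory chain showed no such shift, with 42 of 84 above 0, a median of 0.0007 and 1 passing. That balance moved to 71 above 0 without VO RV 2 and 29 without VO RV 3, and to 62 without both libraries with atrial transcripts.

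In insulin signaling, the receptor was lower. Insr, the insulin receptor, measured 12.3, 10.6 and 9.55 FPKM in the sham RV libraries and 8.20, 8.82 and 6.91 FPKM in the VO RV libraries (log2 fold change −0.41, standard error 0.15, adjusted p = 0.558). Its values did not overlap between the groups, but it no longer met the unadjusted limit without sham RV 1, without VO RV 3, or without both sham RV 1 and VO RV 2.

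Fbxo32, the ubiquitin ligase atrogin-1 and a FOXO target, was 8.74, 8.21 and 3.41 FPKM in VO RV against 16.4, 10.6 and 9.63 FPKM in sham RV (with a log2 fold change of −0.86, adjusted p = 0.558, and −0.46 without VO RV 3). Irs1 and Igf1r had values of −0.45 and −0.37 at adjusted p = 0.593 and 0.639, and Irs2 was higher on average (0.57, adjusted p = 0.615). Of 54 tested genes of the list 35 were below 0, the median was −0.10, 5 passed lower and 0 higher (3% and 1.88% of all tested genes), and 8 lower and 2 higher did not overlap (6.87% and 5.64% of all tested genes). Without both libraries with atrial transcripts 2 passed lower and 1 higher. 1 gene passed lower without sham RV 1 or without VO RV 3, and 10 did without VO RV 2 (223, 179 and 677 of all tested genes). The median of the list was −0.06 without sham RV 1 and −0.05 without VO RV 3. Prkaa2, the AMP-activated kinase subunit α2, measured 23.0, 12.1 and 8.58 FPKM in the sham RV libraries and 7.54, 7.84 and 2.78 FPKM in the VO RV libraries (log2 fold change −1.20, standard error 0.44, adjusted p = 0.558), a wide spread within both groups, and −0.76 without VO RV 3.

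Thyroid hormone receptors differed little. Thra, the main receptor of cardiomyocytes, measured 53.1, 46.3 and 46.0 FPKM in the sham RV libraries and 45.4, 42.1 and 37.5 FPKM in the VO RV libraries. The groups did not overlap by a margin of under 1 FPKM, and the fold change stayed under the limit (log2 fold change −0.21, standard error 0.10, adjusted p = 0.592). Thrb overlapped (−0.19, adjusted p = 0.836). Without VO RV 3 the log2 fold change was −0.13 for Thra and 0.01 for Thrb. Of 8 tested cardiac targets of the hormone 7 were below 0 with a median of −0.39, and 4 passed lower (3% of all tested genes). The number was 1 without VO RV 3 and 2 without both libraries with atrial transcripts (179 and 346 of all tested genes). The 4 were Myh7, Atp2a2, Adrb1 (−0.44) and Hcn2 (−0.48). Thyroid hormone is known to repress Myh7 and to induce the other 3, so these 4 hold genes of both known directions.

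Adrenergic and muscarinic receptors were lower. Adra1a, the α1A-adrenergic receptor, measured 8.52, 5.70 and 5.84 FPKM in the sham RV libraries and 2.96, 2.76 and 1.07 FPKM in the VO RV libraries, with VO RV 3 lowest (log2 fold change −1.43, standard error 0.33, adjusted p = 0.459). Its log2 fold change was −1.64 to −1.07 without single libraries, nearest 0 without VO RV 3. Adcy5, the cardiac adenylyl cyclase, had a log2 fold change of −0.49 (adjusted p = 0.536). Chrm2, the muscarinic receptor of the heart, overlapped (−1.04, adjusted p = 0.563). Without VO RV 3 they were at −0.28 and −0.57. Of 9 tested adrenergic genes 7 were below 0 and 3 passed lower, against 3% of all tested genes (1 without VO RV 3), while 8 of 11 vasoactive receptors and ligands were above 0 with a median of 0.05 (−0.03 without both libraries with atrial transcripts).

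Among developmental factors, Hand1 and Wnt9a had tight and separate values. Hand1, a chamber transcription factor enriched in the left side of the embryonic heart, measured 0.802, 1.13 and 1.21 FPKM in the sham RV libraries and 0.318, 0.317 and 0.345 FPKM in the VO RV libraries (log2 fold change −0.89, standard error 0.18, adjusted p = 0.459). Wnt9a, a Wnt ligand, measured 3.08, 3.47 and 2.76 FPKM in the sham RV libraries and 1.76, 1.47 and 1.5 FPKM in the VO RV libraries (log2 fold change −0.79, standard error 0.14, adjusted p = 0.377). Both kept their order in every fit, with log2 fold changes of −1.01 to −0.81 and −0.86 to −0.72.

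The largest log2 fold changes among protein-coding genes that kept the unadjusted p and fold change without any 1 library included Fabp1, liver fatty acid binding protein, which measured 4.49, 6.81 and 1.94 FPKM in the sham RV libraries and 0.967, 1.38 and 0.626 FPKM in the VO RV libraries (log2 fold change −1.61, adjusted p = 0.536). Lower genes also included Ldoc1l (−1.09), the transcription factor Zbtb16 (−1.04), the DnaJ family member Dnajc28 (−0.99), the limb-bud and heart cofactor Lbh (−0.92) and synaptoporin (Synpr, −0.92). Lbh was abundant, at 364, 289 and 253 FPKM in sham RV and 224, 189 and 90.3 FPKM in VO RV, and its log2 fold change was −0.53 without VO RV 3. Higher genes included the GTPase Rac3 (0.85) and Mnd1 (0.89), a meiotic recombination factor, both under 5 FPKM in every library, and Mnd1 was at 0.55 without both libraries with atrial transcripts.

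Ribosomal protein genes leaned higher. Rpl30 measured 502, 308 and 343 FPKM in the sham RV libraries and 617, 534 and 675 FPKM in the VO RV libraries (log2 fold change 0.69, standard error 0.17, adjusted p = 0.536). Of 93 tested cytosolic ribosomal protein genes 77 were above 0, the median was 0.17, 7 passed higher and 0 lower (1.88% and 3% of all tested genes), and 10 higher and 1 lower did not overlap (5.64% and 6.87% of all tested genes). A low-level Rps29 entry (ENSRNOG00000029443) measured 2.48, 1.65 and 2.75 FPKM in sham RV and 5.89, 3.26 and 8.18 FPKM in VO RV (log2 fold change 1.11). An abundant Rps29 entry (ENSRNOG00000004196) measured 1009, 1047 and 1177 FPKM in sham RV and 1449, 1373 and 1799 FPKM in VO RV (log2 fold change 0.51). Many of these genes have near-identical copies, 4 tested entries share the symbol Rps29, and how reads were divided among them is uncertain. Over the 93 genes the median was 0.10 without VO RV 3, with 74 above 0. With the gene length trend removed the median was 0.11 and 68 were above 0.

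Irrespective of gene type, the 5 largest differences each way were taken among genes with a mean of at least 1 FPKM in the RV, the unadjusted p and fold change, and no overlap. Most lay in poorly annotated and short genes. AABR07026359.1, a protein-coding prediction (chromosome 16, 73755539 to 73763312 in the deposited table, whose build is not given in the sources used here), measured 0.327, 0.304 and 0.29 FPKM in the sham RV libraries and 25.6, 0.602 and 19.4 FPKM in the VO RV libraries. Its 2 high libraries are VO RV 1 and 3, and VO RV 2 was near the sham RV level (log2 fold change 3.37, adjusted p = 0.536). It was called when VO RV 2 was left out, at an adjusted p of 1.95e-05, and its adjusted p reached 0.993 under another setting. AABR07062799.2 (chromosome 6, 9483594 to 9491667) had the smallest p of all genes and measured 8.40, 6.20 and 5.74 FPKM in the sham RV libraries and 2.51, 1.93 and 1.78 FPKM in the VO RV libraries (log2 fold change −1.49, standard error 0.21, adjusted p = 0.262).

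LOC100911746, described as similar to a B9 domain protein, measured 0.063, 0.22 and 0.14 FPKM in the sham RV libraries and 5.45, 5.51 and 0.823 FPKM in the VO RV libraries, and LOC100909750, described as similar to the kinase ABL1, measured 5.58, 2.05 and 4.99 FPKM in the sham RV libraries and 1.01, 0.324 and 0.371 FPKM in the VO RV libraries (log2 fold changes 2.50 and −2.09). Both may share reads with the genes that they resemble. AABR07024104.5 lies on an unplaced contig and varied from 0.4 to 5.58 FPKM among sham RV libraries (−2.16). Of the small RNA genes, SNORD88 (2.15, ENSRNOG00000054326) and SNORD100 (2.29) were higher, SNORD73 was listed at 0 in every sham RV library and at 0.959, 3.19 and 2.61 FPKM in VO RV, and the microRNA gene AABR07044952.1 was lower (−1.76). Such genes hold few reads in libraries made from polyadenylated RNA. Over 312 tested small nucleolar and nuclear RNAs the median log2 fold change was 0.14, 25 passed higher and 6 lower (1.88% and 3% of all tested genes), and with the gene length trend removed these were −0.01, 14 and 9.

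**Figure D4:**
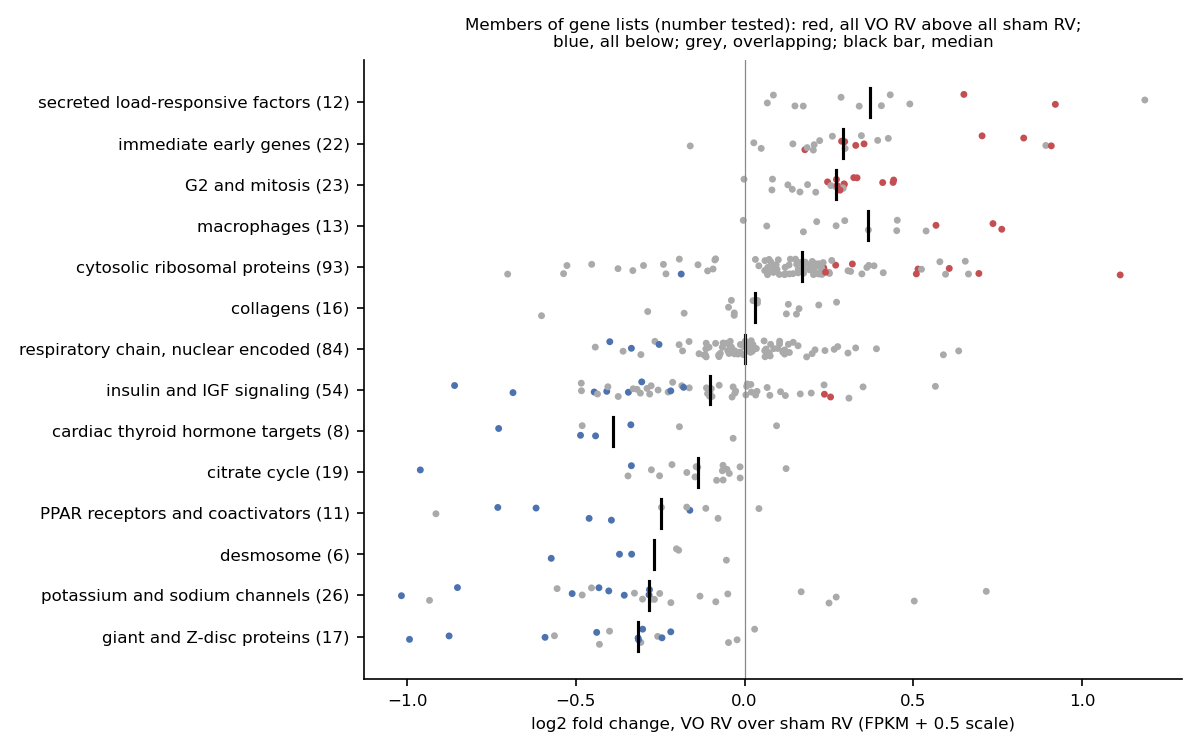
Log2 fold change of VO RV over sham RV (horizontal axis) for the tested members of 14 gene lists, 1 point a gene, with the median as a black bar and colours for genes whose groups do not overlap. Immediate early, G2 and mitosis, and macrophage genes lie to the right of 0 (medians 0.29, 0.27 and 0.37) and Z-disc, channel and desmosome genes to the left (−0.31, −0.28 and −0.27).

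Matrix and stromal genes gave no stable shift. The 56 tested genes of matrix and TGF-β had a median of 0.09, with 37 above 0 and 1 passing in each direction (1.88% of all tested genes higher and 3% lower), but without VO RV 2 the median was −0.14 and 15 were above 0, and without both libraries with atrial transcripts it was −0.02. Summed fibroblast markers were 4837 FPKM in VO RV 2, 3662 FPKM in sham RV 1 and 2553 to 3103 FPKM in the other 4 libraries, the same order as the atrial transcripts. Collagens alone had a median of 0.03, and of −0.19 without VO RV 2. Endothelial (0.07), interferon (0.07) and hypoxia (−0.06) lists had 0 members at the unadjusted p and fold change.

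Fold changes were related to gene length. The median log2 fold change was 0.08 in the shortest 10% of tested genes (42 to 606 bases) and −0.07 in the longest (5020 to 29464 bases), with a Spearman correlation of −0.18 across the 13910 genes, which are not independent. Relative to the mean of the 6 RV libraries, the shortest genes stood at 0.19 and 0.10 in VO RV 3 and 1 and at −0.11 in sham RV 1, and the longest genes at −0.09, −0.09 and 0.11. Sham RV 3 leaned the way of VO RV 1 and 3, and VO RV 2 the way of sham RV 1, so the trend crossed the groups. The median length was 1048 bases among the 261 higher genes, 2334 among the 417 lower genes and 2166 overall. The part of this trend in the results was tested only by removing it, which left 207 genes higher and 420 lower at the unadjusted p and fold change, with log2 fold changes of 0.92 for Nr4a1, −0.66 for Myh7, −0.56 for Ryr2 and −0.46 for Acsl1.

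**Figure D5:**
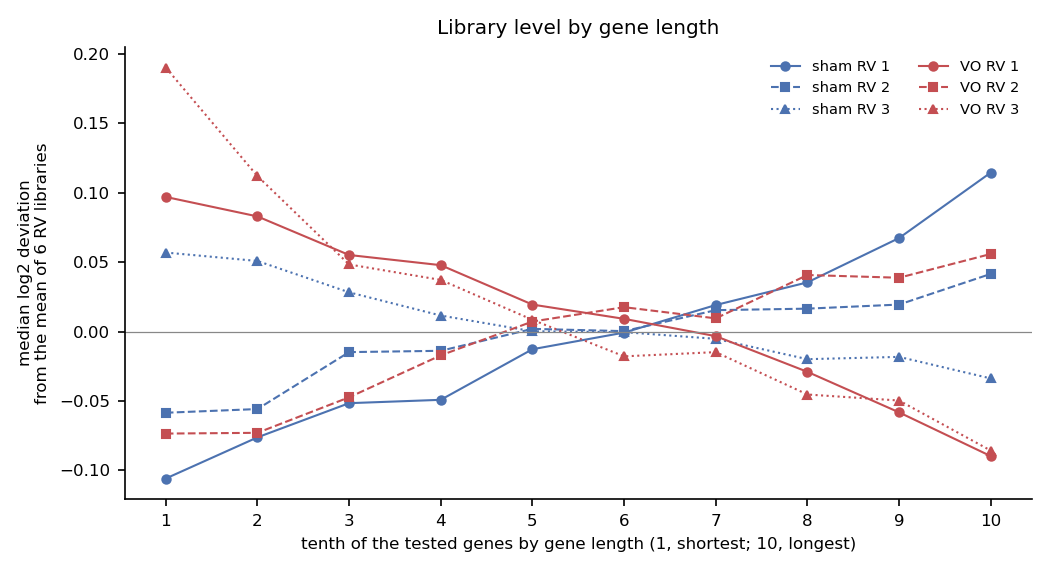
Median log2 deviation of each library from the mean of the 6 RV libraries (vertical axis) in 10 bins of the 13910 tested genes by gene length (horizontal axis, shortest to longest). VO RV 3 and VO RV 1 run from above 0 for short genes to below 0 for long genes, and sham RV 1 runs the opposite way.

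The response of the RV was set against that of the LV in the same model. The sexes were not balanced in the LV either, with Eif2s3y at 33.85, 31.64 and 0 FPKM in sham LV and at 0 FPKM throughout VO LV. The part of sex in the difference was not tested beyond the Y-linked covariate. The difference of the 2 responses had an adjusted p under 0.05 for 550 of 13910 genes (3.95%), a count that was 0 without sham RV 1, 4 without sham RV 2, 79 without VO RV 3, 920 without VO RV 2, 1010 without VO RV 1 and 2 without both sham RV 1 and VO RV 2. It was 21 with all genes above 0 tested, 178 with the Y-linked covariate, 1224 with the atrial covariate and 1044 with array weights. The count was 0 with a block for RV and LV libraries of the same number and treatment, which may or may not share a rat. For Insr the log2 fold change was −0.41 in the RV and 0.84 in the LV (difference −1.25, standard error 0.21, adjusted p = 0.0257). For Acsl1 the values were −0.50 and 0.43 (difference −0.93, adjusted p = 0.032), and for Myh7 −0.73 and 0.44 (difference −1.17, adjusted p = 0.0257). Sham LV libraries were the low ones for Insr, at 5.42, 5.11 and 6.43 FPKM in sham LV and 8.55, 10.9 and 12.4 FPKM in VO LV. Nr4a1 and Ctgf, higher in the VO libraries of both ventricles (LV log2 fold changes 1.12 and 1.04), gave no such difference (adjusted p = 0.528 and 0.882).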

How the data were processed

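Per the file headers and the study's methods, the deposited values are FPKM per gene for 32545 genes in 12 libraries. The authors selected mRNA with poly-T beads, prepared NEBNext Ultra libraries, aligned paired reads with HISAT2 2.0.5 and counted them with featureCounts 1.5.0-p3 (submitters' processing notes); genome build, annotation and strand setting are not given in the sources used here. Antisense and overlapping genes can therefore share reads.

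FPKM were divided by median-ratio size factors (0.995 to 1.01), and the 13910 genes averaging 0.5 FPKM or more across 12 libraries were kept. After a pseudocount of 0.5, their log2 values entered 1 model of 4 groups in limma 3.58.1 (R 4.3.3), with a trended empirical Bayes prior. Fold changes are on the log2(FPKM + 0.5) scale, which understates low genes. P values were adjusted by Benjamini-Hochberg over all tested genes. Multiplied by length, 100% of values under 200 reads were whole reads within 0.02, so depth is known, and these reads were used for voom only. No column of values was left unmapped (0). The fit was tested on simulated data.

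Named genes are those the study names on the RV (Insr, Thra, Acsl1), Sln and Bmp10, the 5 largest changes each way of any biotype (mean of at least 1 FPKM in the RV, unadjusted p and fold change, no overlap), the 12 largest of such protein-coding genes that kept their limits in all 6 fits leaving out 1 RV library, up to 4 genes of a list by smallest p, and lists or roles of at most 12 tested members. The text gives a selection of these. Gene lists, members and named genes were chosen with earlier results of these data known. Settings tried are given with the sensitivity of the results. Western blots, microRNA, ultrasound and histology were not analysed here. Some genes are not reported here.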

Additional observations from a re-analysis of the deposited data

Results flagged for a closer look

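Of the 96 genes described above, 40 had a response to VO in the RV that differed from the response in the LV by the test of that difference (limma interaction, adjusted p 0.0254 to 0.0488 over all 13910 genes), against 3.95% of all tested genes. Many of the 96 were named for their RV fold change or p, which is part of the difference tested, so the share is a description only. Of the 40, 37 were lower in VO RV and higher in VO LV, and 3 were higher in VO RV and lower in VO LV. Values are the log2 response of the RV minus that of the LV.

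Among contractile and Z-disc genes the difference was −1.17 for Myh7, −0.89 for Myh6, −2.60 for Synpo2l, −2.67 for Smyd1 and −1.39 for Pdlim5. Among calcium and channel genes it was −2.44 for Jph2, −1.61 for Ryr2, −1.66 for Cacnb2, −1.22 for Atp2a2, −2.62 for Slc8a1, −2.42 for Kcnj2, −2.06 for Kcnj12 and −1.11 for Hcn2. For the desmosome it was −1.46 for Dsp and −0.92 for Dsg2. For metabolic regulators, enzymes and transporters it was −1.33 for Ppargc1b, −1.53 for Ppara, −1.31 for Ppargc1a, −0.93 for Acsl1, −1.53 for Slc16a1, −2.76 for Ogdh, −1.58 for Pygb and −3.57 for Prkaa2. In insulin signaling it was −1.25 for Insr and −2.24 for Fbxo32. Among receptors and adenylyl cyclase it was −3.38 for Adra1a, −1.33 for Adcy5, −1.25 for Adrb1 and −2.92 for Chrm2. For developmental and other genes it was −1.59 for Hand1, −1.52 for Wnt9a, −1.44 for Yap1, −2.29 for Ldoc1l, −1.89 for Dnajc28, −2.37 for Lbh, −2.66 for AABR07062799.2 and −4.03 for LOC100909750. The 3 positive differences were 0.93 for C1qb, 1.39 for Ager and 4.76 for LOC100911746.

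The LV libraries of some of these genes were far apart. Prkaa2 was 2.01, 1.67 and 3.86 FPKM in sham LV and 11.2, 12.2 and 21.8 FPKM in VO LV, and sham RV 1 (23.0 FPKM) lay at the VO LV level while VO RV 3 (2.78 FPKM) lay at the sham LV level. Gene length went with the LV response in the opposite direction to the RV response, with a median log2 fold change of −0.18 for the shortest 10% of genes and 0.05 for the longest in the LV, and its part in these differences was tested only by removing the trend, after which 38 of the 40 genes passed. Without sham RV 1, or without both sham RV 1 and VO RV 2, 0 of the 40 passed, without sham RV 2 1 did, without VO RV 3 22 did, with the Y-linked covariate 27 did, and with all genes above 0 tested 5 did, all with the same sign. With a block for RV and LV libraries of the same number and treatment 0 of the 40 passed (adjusted p 0.148 to 0.16, limma). Whether such libraries shared a rat is not given in the labels.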

How the results depend on the processing

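The count of DEGs was 0 under every setting tried except 4. It was 1 with all 21603 genes above 0 tested (a U6 gene, 1.24, 0.719 and 0.687 FPKM in sham RV and 0 in VO RV), 2 without both sham RV 1 and VO RV 2 (Mcpt1 and AABR07026359.1), and 0 to 1 when single libraries were left out (SNORD33 without sham RV 2, AABR07026359.1 without VO RV 2). At the unadjusted p and fold change, leaving out single RV libraries gave 401 to 1166 genes, 222 to 514 of them higher and 179 to 677 lower. With no fold change limit the counts were 1170, 500 and 670, and with a limit of 2 they were 88, 51 and 37. Non-overlapping genes numbered 1170 to 2009 higher and 1327 to 2107 lower with 1 library left out. Rescaling, other pseudocounts, filters, robust or weighted fits, covariates for atrial or Y-linked genes, removal of the length trend and voom kept the counts at the unadjusted p and fold change within 1.5 times, and the filters did so for the non-overlapping genes. Sln, which did not separate the groups, had a log2 fold change of −0.85 with the atrial covariate, to which it contributes. Of the 96 genes of the text, 13 changed sign under at least 1 setting, 0 of them among the 71 at the unadjusted p and fold change, many of which were named for that difference.

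The deviations of same-numbered sham RV and VO RV libraries correlated at −0.13, −0.11 and 0.06, which gave no sign that the replicate numbers pair them. With the replicate block in the 6 RV libraries, 0 genes were DEGs, 310 were higher and 450 lower at the unadjusted p and fold change, against 260 and 358 without the replicate block. The deposited unit is FPKM, and the count tests planned with edgeR and DESeq2 were not run. Voom was the only test run on the recovered reads. The difference of the RV and LV responses was tested without pairing. Deviations of same-numbered RV and LV libraries of 1 treatment correlated at −0.22 to 0.12, which cannot show whether they shared a rat. Eif2s3y measured 33.85, 31.64 and 0 FPKM in sham LV and 31.52, 30.56 and 0 FPKM in sham RV, so sex matched by number there. In VO LV it was 0, 0 and 0 FPKM and in VO RV 0, 0 and 27.66 FPKM, so replicate 3 did not match. With a replicate block across ventricles 0 genes had an adjusted p under 0.05 for the difference in limma. An unadjusted p under 0.05 was found for 2759 genes, against 3548 without the block. The count at the adjusted p was 550 without the block, 0 to 1010 without single RV libraries, 2 without both sham RV 1 and VO RV 2, 21 with all genes above 0, 1044 with array weights, 1224 with the atrial covariate and 178 with the Y-linked covariate. The medians of several lists moved without VO RV 2, among them the secreted, matrix, collagen, atrial, macrophage and citrate cycle lists, as given above. At 14121713 to 16438318 reads on genes, genes under 1 FPKM rest on few reads, and 3 libraries a group limit the rest.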
